A study of Bos taurus with 48 samples.

Results

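The comparison described here is the change in whole blood gene expression of Holstein-Friesian (H-F) bull calves between d -14, when they were still fed milk replacer, and d 8, after they had been weaned. It was made up of the 16 libraries of 8 H-F calves at these days, out of 48 libraries in all, and each calf was compared with itself by the calf number in its sample label. Calves were housed in groups and fed concentrate and milk replacer, and their allowance of milk replacer was lowered gradually from 6 to 0 litres between d -13 and d 0. The same H-F calves were also bled at d 1, and 8 Jersey (J) bull calves were bled on the same days. The d 8 sample was taken 22 days after the d -14 sample, and no calf stayed on milk, so the effects of weaning, of solid feed and of growing older cannot be told apart. The labels give no age for single calves. In the study, J calves were older on average than H-F calves at enrolment and came from different farms. Before weaning, concentrate was offered up to a limit to H-F calves and freely to J calves. The paper states that H-F calves never ate their full allowance.

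Weaning moves a young ruminant from a diet of milk fat and lactose, digested like that of a simple-stomached animal, to solid feed that is fermented in the rumen, and short-chain fatty acids become its main absorbed fuel. Whole blood holds neutrophils, monocytes, lymphocytes, platelets, eosinophils and a small number of dendritic cells, and the lymphocyte populations of a calf are still maturing at this age. RNA of whole blood is a sum over these cells. Fewer cells of a type and less RNA per cell cannot be told apart in it.

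The 16 H-F libraries of d -14 and d 8 held 28398386 to 37763851 counts each, and the 48 libraries 26219017 to 39095624 counts. Total counts per library did not differ between the days beyond the spread of the paired differences (n = 8, exact permutation test, two-sided p = 0.922). Synthetic ERCC spike-in RNA took 0.203% ± 0.0126 (SD, n = 8) of the counts at d -14 and 0.245% ± 0.0543 (SD, n = 8) at d 8, was higher at d 8 in 6 of 8 calves, and gave p = 0.0625 in an exact permutation test of the paired differences (two-sided). The 10 most abundant genes of a library took 5.33% ± 0.347 (SD, n = 8) of the gene counts at d -14 and 5.33% ± 0.264 (SD, n = 8) at d 8. No member of the red cell or globin list could be matched by symbol. J calf 85 was left out of every fit but the alternative with all 16 calves, as explained with the processing, which left 7 J calves.

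A modest set of genes moved in the H-F calves, and those with a symbol and the same sign in all 8 calves included a rise of the tachykinin gene TAC3 and falls of the complement receptor gene C3AR1 and the lipid antigen presentation gene CD1A. Of 12677 genes tested, 137 (1.08%) were differentially expressed genes (DEG), that is, had a Benjamini-Hochberg adjusted p under 0.1 in edgeR's quasi-likelihood test with calf as a block and a fold change of at least 1.5. Of these, 82 (0.647% of the genes tested) were higher and 55 (0.434%) lower at d 8. In the words below, a gene rose or fell when its adjusted p was under 0.1 whatever its fold change, which held for 1754 genes (13.8%), 872 of them up (6.88%) and 882 down (6.96%). This count was 637 without calf 48, 765 without calf 25, 563 with only the 16 libraries of d -14 and d 8, and 15 without the replicate block. Most of these changes were small: 911 of the 1754 (51.9%) were under 1.2-fold, and their median size was 0.258 on the log2 scale.

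The DEG were mostly genes of low level. Their median level over the 16 libraries, in CPM (a gene's count relative to its library's normalised total), was 2.98 CPM for those that rose and 2.44 CPM for those that fell, against 27.8 CPM for all genes tested. The 1754 genes had a median of 26.7 CPM, close to that of all genes. At least 2-fold changes were seen for 9 DEG that rose and 12 that fell, and at least 4-fold changes for 2 and 7. The median log2 fold change over all genes tested was 0.00745, a value that TMM scaling holds near 0.

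The number of DEG rested on comparing each calf with itself. Without the replicate block, edgeR's quasi-likelihood test gave 9 DEG (2 up, 7 down), all of them among the 137, and its exact test, which also ignores the calf, gave 20. With the pairing kept, DESeq2 gave 140 (133 shared with the 137) and limma-voom, with the calf as a random term, gave 135 (120 shared). Leaving out single H-F calves gave 89 DEG (without calf 48) to 168 (without calf 56), and 93 without calf 25. A fit of only the 16 H-F libraries of d -14 and d 8 also gave 93 DEG. The biological coefficient of variation was 0.185 without the block and 0.102 with it.

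**Figure D1:**
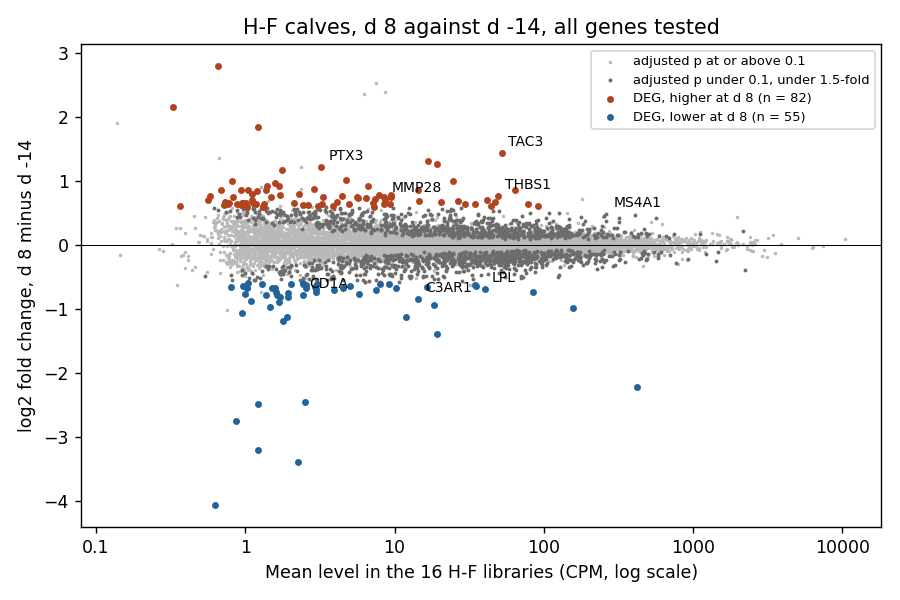
Log2 fold change of H-F d 8 minus d -14 (vertical axis) against the mean level in the 16 H-F libraries (horizontal axis, CPM on a log scale) for all 12677 genes tested, with 82 DEG that rose in red, 55 that fell in blue, smaller changes with adjusted p under 0.1 in dark grey and the rest in light grey. Most DEG lie to the left, at low levels, and 7 genes lie at or below a 4-fold fall.

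Agreement among calves was wide but not complete. The sign of the log2 CPM difference was the same in all 8 calves for 44 of the 82 DEG that rose, beside 2.78% of all genes tested, and for 29 of the 55 that fell, beside 2.62%. At least 7 of 8 calves had the sign of the fit for 74 of the 82 and 50 of the 55. The CPM of the 2 days did not overlap at all for 1 DEG that rose (all genes: 0.0789%) and 3 that fell (all genes: 0.071%). These counts describe genes that were chosen for their change in the same libraries. Over the 82 genes, the median difference of a calf ran from 0.302 in calf 56 to 1.11 in calf 48, and over the 55 genes from -0.352 in calf 32 to -1.41 in calf 25, while the median over all genes lay between -0.00169 and 0.0205 in every calf. Calves 25 and 48 were thus those with the largest fall and the largest rise, and each calf moved in the direction of the group.

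Symbols were available only for the 695 genes tested that the study's tables of differences between the breeds name, so the genes named here are a list chosen on these same samples for another contrast. They hold 43 of the 137 DEG (24 up, 19 down), 6.19% of the genes with a symbol against 0.785% of the 11982 without one. At any fold, 203 of the 695 (29.2%) had an adjusted p under 0.1, with 106 rising (15.3%) and 97 falling (14.0%), and their median log2 fold change was 0.0378. The other 94 DEG have no symbol. The study's tables include differences at d -14, so some named genes were picked for a high or low H-F level on that day. For such genes, moving back from that level cannot be told apart here from a change with day.

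Among secreted proteins, TAC3, which encodes the precursor of neurokinin B, had the largest rise among the genes with a symbol that rose in all 8 calves. TAC3 (ENSBTAG00000021807) was at 7.83 CPM in the lowest calf, 29.1 in the median and 49.6 in the highest at d -14, and at 22.8, 70.9 and 130.0 CPM at d 8. The days overlapped, with 5 of 8 calves at d 8 above the highest d -14 value. Its log2 fold change was 1.43 ± 0.209 (SE, n = 8; edgeR adjusted p = 7.2e-05), a 2.69-fold rise. THBS1 (ENSBTAG00000002006), which encodes thrombospondin 1, an adhesive glycoprotein released by platelets and made by monocytes, ran from 26.6 to 41.7 CPM (median 35.4) at d -14 and from 34.9 to 136 CPM (median 57) at d 8. It rose by 0.76 ± 0.157 on the log2 scale (SE, n = 8; edgeR adjusted p = 0.00332). The matrix metalloproteinase gene MMP28 (ENSBTAG00000006086) was at 4.60 to 8.38 CPM (median 6.49) at d -14 and 8.05 to 12.9 CPM (median 10.7) at d 8, with 6 of 8 calves above every d -14 value. Its rise of 0.72 ± 0.0863 (log2, SE, n = 8) had the smallest edgeR adjusted p of the genes with a symbol, 1.13e-05.

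Receptor and channel genes were found among the rises as well as among the falls given further on. PDGFRA (ENSBTAG00000007173), a receptor for platelet-derived growth factor, went from 0.862 to 4.27 CPM (median 1.69) at d -14 to 1.76 to 8.05 CPM (median 2.88) at d 8, a log2 fold change of 0.87 ± 0.216 (SE, n = 8; edgeR adjusted p = 0.0139). OXER1 (ENSBTAG00000004076), a granulocyte receptor for oxidised arachidonic acid products, rose by 0.76 ± 0.195 from a median of 0.415 CPM to 0.746 CPM, and 7 of 8 calves at d 8 lay above all d -14 values. The adhesion receptor gene ADGRF1 (ENSBTAG00000021609) rose by 0.67 ± 0.113, from a median of 2.95 to 4.84 CPM, and only 1 calf at d 8 exceeded the d -14 range. Both potassium channel genes among the DEG with a symbol rose in all 8 calves. KCNN4 (ENSBTAG00000004588), the calcium-activated channel of lymphocytes and red cells, went from 19.7 to 50.4 CPM (median 37.7) to 39.1 to 70.4 CPM (median 50.9), a log2 fold change of 0.60 ± 0.0993 (SE, n = 8; edgeR adjusted p = 0.000355). KCNK1 (ENSBTAG00000019355), a background potassium channel, rose by 0.65 ± 0.134 from a median of 0.668 to 1.07 CPM.

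Inside the cell, COX6A2 (ENSBTAG00000019521), the heart and muscle isoform of a cytochrome c oxidase subunit, was at 0.558 to 0.913 CPM (median 0.758) at d -14 and at 1.06 to 1.85 CPM (median 1.2) at d 8. It was the single DEG that rose with no overlap between the days (0.85 ± 0.140 on the log2 scale, SE, n = 8, edgeR adjusted p = 0.000355). NRIP3 (ENSBTAG00000013366) rose by 0.74 ± 0.124, GOT1L1 (ENSBTAG00000016446) by 0.70 ± 0.186 and FBXO2 (ENSBTAG00000007223), a ubiquitin ligase subunit that binds glycoproteins, by 0.65 ± 0.190 on the log2 scale, and FBXO2 did not pass without calf 48 (edgeR adjusted p = 0.117). Without the replicate block, MMP28 (adjusted p = 0.0755) and COX6A2 (0.0531) were still DEG, and the other 10 of these 12 genes had adjusted p of 0.241 to 0.476. At d -14, PDGFRA, COX6A2 and THBS1 had a higher median in H-F than in J calves. The rest of the 12 had a lower one, such as MMP28 at 6.49 against 11.8 CPM.

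The falls with a symbol and the same sign in all 8 calves numbered fewer than the rises. C3AR1 (ENSBTAG00000019741), the receptor for the complement fragment C3a, was at 10.7 to 27.6 CPM (median 17.0) at d -14 and 6.30 to 16.8 CPM (median 8.95) at d 8, and 5 of 8 calves at d 8 lay below every d -14 value. Its log2 fold change was -0.85 ± 0.238 (SE, n = 8; edgeR adjusted p = 0.0279), and it did not pass without calf 25 (adjusted p = 0.119). GPR34 (ENSBTAG00000020144), a receptor for lysophosphatidylserine, fell from a median of 5.44 CPM (3.98 to 8.23) to 3.36 CPM (2.41 to 4.32), a log2 fold change of -0.68 ± 0.148 (SE, n = 8; edgeR adjusted p = 0.00516). CD1A (ENSBTAG00000038263), which presents lipid antigens on dendritic cells, varied widely between calves, from 0.194 to 8.92 CPM (median 2.15) at d -14 and from 0.149 to 3.31 CPM (median 1.52) at d 8. It was lower at d 8 in every calf, by 0.79 ± 0.139 on the log2 scale (SE, n = 8; edgeR adjusted p = 0.000749), but did not pass in limma-voom (adjusted p = 0.194). LPL (ENSBTAG00000012855), the lipase that frees fatty acids from circulating lipoproteins, was the most abundant DEG with the same sign in all 8 calves among the falls with a symbol. LPL ran from 37.6 to 73.9 CPM (median 49.5) at d -14 and 19.2 to 42.1 CPM (median 31.6) at d 8, and its log2 fold change was -0.69 ± 0.142 (SE, n = 8; edgeR adjusted p = 0.00332).

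FZD7 (ENSBTAG00000002283), a receptor for Wnt ligands, was at 1.53 to 2.58 CPM (median 1.99) at d -14 and 0.958 to 1.49 CPM (median 1.19) at d 8, with no overlap. Its fall of -0.74 ± 0.150 on the log2 scale (SE, n = 8; edgeR adjusted p = 0.00286) was the only one of the falls with a symbol that was also a DEG without the replicate block (adjusted p = 0.0783). The transcription factor gene MYCL (ENSBTAG00000006338) fell by 0.78 on the log2 scale, from a median of 1.92 to 1.18 CPM. VWA5A (ENSBTAG00000021215) fell by 0.68, and ARHGAP5 (ENSBTAG00000027024), a GTPase-activating protein, by 0.62, with 7 of 8 calves below every d -14 value of ARHGAP5. Without the block, the other 7 of these 8 falls had adjusted p of 0.202 to 0.601. All 8 genes had a higher d -14 median in H-F than in J calves, such as LPL at 49.5 against 31.8 CPM. The limit given with the symbols holds for them.

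**Figure D2:**
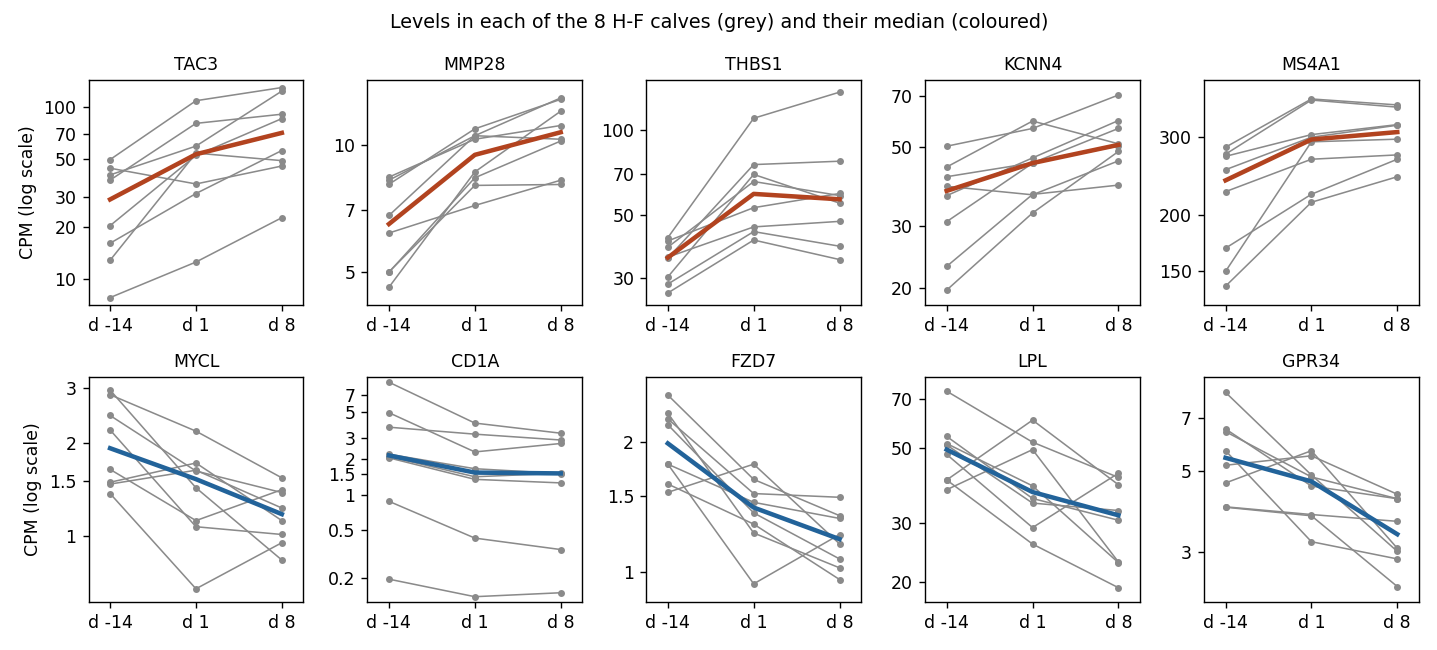
CPM (vertical axes, log scale, a range for each panel) at d -14, d 1 and d 8 for 10 genes in each of the 8 H-F calves (grey lines) and their median (coloured line, red for a rise and blue for a fall). Every grey line ends higher at d 8 than at d -14 in the upper row and lower in the lower row.

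Of the remaining DEG with a symbol, those named next were chosen after their values were seen. The largest fitted changes were a rise of 1.83 on the log2 scale for SERPINB4, a serine protease inhibitor gene, in 5 of 8 calves, and -1.06 for the scaffold gene SASH1, lower in 6 of 8 calves. SYT8 (log2 fold change 0.92), CAPN3 (0.74), LY6G6C (0.68), CRISPLD2 (0.67), SERINC2 (ENSBTAG00000011582; 0.63) and CDKN1C (0.65), an inhibitor of the cell cycle, were each higher at d 8 in 7 of 8 calves. CRISPLD2, a secreted glycoprotein, had a median of 33.1 CPM at d -14 and 59.6 CPM at d 8. On the falling side, the folate receptor gene FOLR2 (-0.67), the receptor tyrosine kinase gene ROR2 (-0.71), which binds Wnt ligands as FZD7 does, the phosphatase gene PTPRO (-0.64) and STXBP6 (-0.62) were lower in 7 of 8 calves. TPC3 went from a median of 47.9 CPM to 23.6 CPM, with a log2 fold change of -0.65, and was lower in 7 of 8 calves. Smaller falls with adjusted p under 0.1 were seen for the phagocyte genes TREM2 (-0.42), OLR1 (-0.52), AXL (-0.56) and MERTK (-0.46), the last 2 being receptors for dying cells, and for the transcription factor gene MITF (-0.57).

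The largest falls of all belonged to genes without a symbol. The identifiers given here were picked after their values were seen, for size of change or for level. ENSBTAG00000026417 went from 0.223 to 2.42 CPM (median 1.02) at d -14 to 0.0 to 0.122 CPM (median 0.0676) at d 8, with no overlap, and its fitted log2 fold change of -4.07 ± 0.537 (SE, n = 8; edgeR adjusted p = 2.31e-05) was the largest of any DEG. It was also a DEG without the replicate block (adjusted p = 0.0627). ENSBTAG00000038748 was the most abundant DEG, at 101 to 1730.0 CPM (median 640.0) at d -14 and 75.8 to 231 CPM (median 116) at d 8, and was lower in all 8 calves (log2 fold change -2.23 ± 0.304, SE, n = 8; edgeR adjusted p = 3.22e-05). Among DEG that rose, ENSBTAG00000008852 had the highest level, from a median of 68.1 CPM (52.6 to 106) to 103 CPM (93.1 to 135), and rose in all 8 calves by 0.60 ± 0.0788 on the log2 scale (SE, n = 8; edgeR adjusted p = 2.31e-05). ENSBTAG00000003505 had the largest fitted rise, 2.79 ± 1.01 (SE, n = 8; edgeR adjusted p = 0.0812), on levels of 0.0 to 4.09 CPM, and did not pass without calf 20, 25, 33 or 56 (adjusted p = 0.124 to 0.260).

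Of the gene lists, B cells gave the clearest count: 6 of the 10 matched genes rose and none fell, with a median log2 fold change of 0.348. Among the 695 genes with a symbol, from which every list member comes, 15.3% rose and the median was 0.0378, and among all genes tested 6.88% rose and the median was 0.00745. No member reached 1.5-fold. Every matched member had a lower median in H-F than in J calves at d -14, such as MS4A1 at 240.0 against 364 CPM. Moving back from a d -14 level picked as low cannot be told apart here from a change with day. MS4A1 (ENSBTAG00000004580), which encodes the surface protein CD20, was at 139 to 284 CPM (median 240.0) at d -14 and 244 to 353 CPM (median 307) at d 8, higher in all 8 calves, with 5 of 8 above every d -14 value (log2 fold change 0.49 ± 0.0670, SE, n = 8; edgeR adjusted p = 3.37e-05). The other members that rose included the antigen receptor chain gene CD79B (0.36), the inhibitory receptor gene CD22 (0.37), the adaptor gene BANK1 (0.33) and TNFRSF13C (0.47), the receptor for a B cell survival factor. PAX5, EBF1, CXCR5 and VPREB3 had log2 fold changes of 0.20, 0.13, 0.09 and 0.25 and did not pass. Summed over the list, the level ran from 544 to 1130.0 CPM (median 914) at d -14 and from 878 to 1280.0 CPM (median 1070.0) at d 8, higher in 8 of 8 calves. Without the replicate block, the 6 genes had adjusted p of 0.268 to 0.595. FCRL1 (0.35), a B cell receptor gene outside the list and chosen after its value was seen, also rose.

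MHC class II genes, which B cells also express, moved less: 2 of 3 rose and 0 fell, with a median of 0.153. Among the genes with a symbol 15.3% rose, and among all genes tested 6.88%. All 3 had a lower d -14 median in H-F than in J calves, such as BOLA-DOA at 63.1 against 103 CPM. The limit given for B cell genes holds for them too. BOLA-DOB (ENSBTAG00000047707), a chain of the B cell peptide-loading regulator, rose by 0.26 ± 0.0583 on the log2 scale from a median of 54.1 to 62.0 CPM (edgeR adjusted p = 0.00596) and did not pass in limma-voom (0.162). BOLA-DOA rose by 0.15, and the class II transactivator gene CIITA was at 0.12 and did not pass. Because B cell genes rose with them, their part in the class II change was not tested.

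Dendritic cell genes went the other way. Of 4 matched members 3 fell and 0 rose, with a median log2 fold change of -0.458, where 14.0% of the genes with a symbol and 6.96% of all genes tested fell. CD1A was the only DEG of the list. Every matched member had a higher d -14 median in H-F than in J calves, such as CLEC10A at 1.33 against 0.155 CPM. The limit given for B cell genes holds here too, in the other direction. FLT3, the receptor for the growth factor that dendritic cell precursors depend on, fell by 0.37 on the log2 scale, and the lectin gene CLEC10A by 0.55. BATF3, a transcription factor of cross-presenting dendritic cells, was at -0.10 and did not pass. Their summed level ran from 14.2 to 32.1 CPM (median 19.8) at d -14 and 13.2 to 20.5 CPM (median 16.6) at d 8, lower in 7 of 8 calves. Of the 2 matched monocyte and macrophage genes, the lectin gene CD209 (ENSBTAG00000007312) fell by 0.69 on the log2 scale, from a median of 2.40 to 1.85 CPM, and lost its call without calf 25, 27, 32, 48 or 49 (adjusted p = 0.116 to 0.257), while the scavenger receptor gene MSR1 was at -0.23 and did not pass. Their summed level was 11.1 to 35.0 CPM at d -14 and 5.46 to 32.9 CPM at d 8. The part of such cells in the falls of C3AR1, GPR34, LPL and FOLR2 was not tested.

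Granulocyte lists held few genes. Beside the counts below, 15.3% of the genes with a symbol rose and 14.0% fell, and 6.88% and 6.96% of all genes tested. A call of 1 gene in 7 or 8 is close to the share of genes with a symbol. CXCR2, the chemokine receptor of neutrophils, was at 33.8 to 82.7 CPM (median 53) and 29.2 to 116 CPM (median 70.4) and did not pass (log2 fold change 0.35, edgeR adjusted p = 0.268), although it passed without calf 27 (0.55, adjusted p = 0.073). Of 2 granule genes LCN2 (ENSBTAG00000014149), a siderophore-binding protein of neutrophil granules, rose by 0.32 ± 0.0906 in all 8 calves (SE, n = 8; edgeR adjusted p = 0.0274), but not without calf 48 (0.151), and MPO was at 0.05. Among 3 eosinophil and basophil genes the adenosine receptor gene ADORA3 fell by 0.51 (edgeR adjusted p = 0.0447) and did not pass without calf 25 (0.159) or calf 48 (0.155), while PRG3 (-0.35) and SIGLEC8 (0.10) did not pass. Of 8 natural killer and cytotoxic genes, S1PR5 rose by 0.27 (adjusted p = 0.0772), a call lost without calf 25, 27, 33 or 48 (adjusted p = 0.120 to 0.280), and the other 7 did not pass, among them GZMB at 0.47 (adjusted p = 0.130). The list median was 0.0612. In the platelet list 1 of 7 members rose. It was PF4 (ENSBTAG00000011961), a chemokine of platelet granules, at 222 to 489 CPM (median 315) and 213 to 658 CPM (median 495), with a log2 fold change of 0.46 ± 0.122 (SE, n = 8; edgeR adjusted p = 0.0212) and a call lost without calf 48 (0.110). The list median was 0.0470. GP9 (0.38) and GP6 (0.27) were higher in 7 and 6 of 8 calves, TREML1, PPBP and GP5 were at 0.05, -0.05 and -0.12, and none of these passed. The summed platelet level, at 248 to 555 CPM and 240.0 to 725 CPM, was mostly that of PF4. The part of platelets in the rise of THBS1 was not tested.

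**Figure D3:**
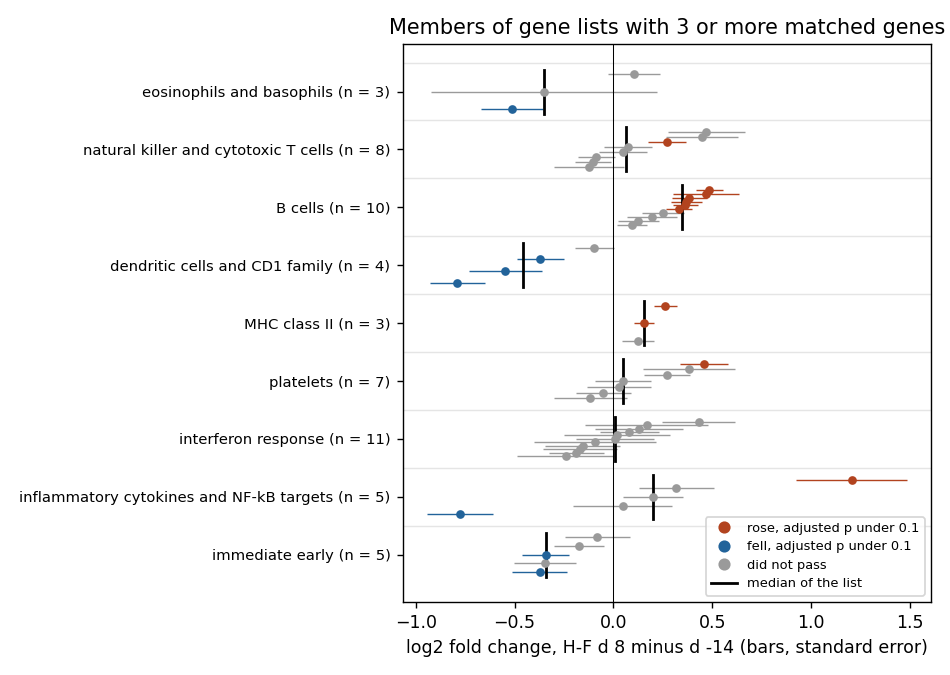
Log2 fold change of H-F d 8 minus d -14 with its standard error for the members of the lists that had 3 or more matched genes (red, rose; blue, fell; grey, did not pass), and the median of each list as a black bar. B cell genes all lie to the right of 0 (median 0.348), dendritic cell genes to the left (median -0.458), and interferon response genes on both sides (median 0.00905).

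Signalling lists gave small or mixed changes. Their counts stand beside 15.3% of genes with a symbol that rose and 14.0% that fell (6.88% and 6.96% of all genes tested). None of the 11 matched interferon response genes rose or fell: their median was 0.00905, the range of their log2 fold changes was -0.242 to 0.432, and the member with the smallest p, IFIT3, ran from 120.0 to 351 CPM at d -14 and 112 to 489 CPM at d 8 (edgeR adjusted p = 0.138, and 0.0431 without calf 27). Of 5 inflammatory genes 1 rose and 1 fell, and both were DEG. PTX3 (ENSBTAG00000009012), a soluble pattern recognition protein, ran from 0.389 to 5.92 CPM (median 1.44) and 1.07 to 13.1 CPM (median 1.79), with a log2 fold change of 1.21 ± 0.281 (SE, n = 8; edgeR adjusted p = 0.00908) and 7 of 8 calves higher. PTGS2 (ENSBTAG00000014127), the inducible enzyme of prostaglandin synthesis, ran from 3.43 to 9.73 CPM (median 7.5) and 1.04 to 7.61 CPM (median 4.96), with -0.78 ± 0.169 (adjusted p = 0.00529) and 7 of 8 calves lower. IL1B (0.32), ICAM1 (0.20) and CCL3 (0.05) did not pass. Of 5 immediate early genes FOS (-0.34) and FOSB (-0.37) fell, the first with a call that was lost without calf 25, 27, 48 or 49 (adjusted p = 0.103 to 0.176), and EGR2, EGR3 and ATF3 did not pass; the list median was -0.343 and the summed level was lower at d 8 in all 8 calves. The 1 matched glucocorticoid gene, IL1R2, was at -0.13 (adjusted p = 0.562), and the cell cycle inhibitor CDKN1A, the 1 matched gene of the apoptosis list, at 0.005 (adjusted p = 0.984).

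Genes of lipid and energy metabolism could be followed only one by one. FFAR3 (ENSBTAG00000013791), a receptor for short-chain fatty acids, rose by 0.49 ± 0.147 on the log2 scale (SE, n = 8; edgeR adjusted p = 0.0358), from 1.75 to 5.2 CPM (median 3.95) at d -14 to 3.42 to 6.37 CPM (median 5.2) at d 8. It was higher in 7 of 8 calves and did not pass without calf 48 (adjusted p = 0.149). CPT1B (ENSBTAG00000016048), which carries fatty acids into mitochondria for oxidation, rose in all 8 calves by 0.39 ± 0.113 (adjusted p = 0.0337), from a median of 4.18 to 5.86 CPM, but not without calf 25 (0.104), and PPARG was at -0.03 and did not pass. ABCA1 (ENSBTAG00000006937), the cholesterol efflux pump, fell by 0.50 on the log2 scale (edgeR adjusted p = 0.00222), from 8.59 to 24.3 CPM (median 19.2) to 10.3 to 15.4 CPM (median 12.3), lower in 7 of 8 calves with all d 8 values inside the d -14 range. The sterol synthesis gene TM7SF2 rose by 0.32 (adjusted p = 0.0190), while STARD4 was at -0.14 and the iron reductase gene STEAP3 at -0.26, and neither passed. COX7C, the other matched gene of oxidative phosphorylation beside COX6A2, was at -0.02. Without the block, FFAR3, CPT1B, ABCA1 and TM7SF2 had adjusted p of 0.362 to 0.484. Lists of T cells, gamma delta T cells, plasma cells, red cell precursors, acute phase, heat shock, cell cycle and ribosomal protein genes had no member with a symbol.

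At d 1, the day after milk feeding ended, changes from d -14 were fewer. There were 32 DEG (0.252%), 13 up and 19 down, and 237 genes with adjusted p under 0.1 at any fold (1.87%); without the replicate block there were 0 DEG and 528 genes at an unadjusted p under 0.05, DESeq2 gave 36 DEG and limma-voom 18. The d 1 and d 8 comparisons share the d -14 libraries, and the 82 and 55 genes were chosen for their change at d 8, so the values are only set side by side and their order is not a result. Over the 82 genes the median log2 fold change was 0.464 at d 1 and 0.708 at d 8, and over the 55 genes -0.531 and -0.742. THBS1 was at 0.79 at d 1 and 0.76 at d 8, and OXER1 at 0.77 and 0.76. TAC3 was at 0.92 and 1.43, MMP28 at 0.52 and 0.72, and MS4A1 at 0.42 and 0.49. LPL was at -0.30 (adjusted p = 0.335) and -0.69, and GPR34 at -0.30 (adjusted p = 0.362) and -0.68. Between d 1 and d 8 no gene passed: 0 DEG and 0.0% with adjusted p under 0.1 in edgeR's quasi-likelihood test, with 1097 genes at an unadjusted p under 0.05, and 0 DEG in DESeq2 and in limma-voom.

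The J calves, bled on the same days, give the only independent view of the same interval. They had 26 DEG (0.205%), 6 up and 20 down, and 39 genes with adjusted p under 0.1 (0.308%), and 0 DEG without the replicate block. Of the 26, 19 were also DEG in H-F calves, which is 13.9% of the H-F DEG and 73.1% of the J DEG. All 19 moved the same way, 15 of them down, and none has a symbol. Of the 82 genes that rose in H-F calves, 69 (84.1%) had a higher fitted level at d 8 in J calves, where 48.1% of all genes tested did, with a median log2 fold change of 0.340. Of the 55 that fell, 54 (98.2%) were lower in J calves, beside 51.9% of all genes, with a median of -0.511. The genes were chosen on the H-F libraries, so the H-F medians are not set against these. Median standard errors for the genes that rose were 0.194 (H-F) and 0.207 (J), and for the genes that fell 0.180 (H-F) and 0.205 (J).

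Both identifiers with the large falls also fell in J calves. ENSBTAG00000026417 had a log2 fold change of -2.76 in J calves (edgeR adjusted p = 0.00992) and ENSBTAG00000038748 one of -2.83 (adjusted p = 7.7e-06), each lower in all 7 calves. LPL was at -0.62 ± 0.157 in J calves and GPR34 at -0.62 ± 0.165 (SE, n = 7), with edgeR adjusted p of 0.114 and 0.134, so neither passed there. Their differences between the breeds were -0.07 and -0.06 on the log2 scale.

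The breeds also differed in age and source farm, so a difference between them cannot be put down to breed alone. Whether a change differed between the breeds was tested as an interaction, and 2 genes (0.0158%) passed at an adjusted p under 0.1. TAC3 was one. In J calves it had a median of 39.2 CPM at d -14 and 40.7 CPM at d 8 and a log2 fold change of -0.16 ± 0.221 (SE, n = 7), and the H-F change exceeded the J change by 1.58 ± 0.304 (edgeR adjusted p = 0.0817). The other, ENSBTAG00000018202, named for passing this test, rose by 0.24 in H-F calves and was at -0.05 in J calves, a difference of 0.29 ± 0.0555 (edgeR adjusted p = 0.0817). Neither passed without H-F calf 25, 27, 32, 48, 49 or 56, when 0 genes passed, nor in limma-voom, with RLE factors, at a mean count of at least 10 or without the replicate block. DESeq2 gave 5 DEG, and 5 were found without calf 20. MMP28 differed by 0.61 ± 0.124 (adjusted p = 0.108), CD79B by 0.42 ± 0.0941 (0.155) and MS4A1 by 0.39 (0.306), and none of them passed, so the rise of B cell genes is not shown to differ between the breeds. An unadjusted p under 0.05 for a breed difference in the change was given by 938 genes (7.40% of those tested). With no difference in any gene, a share of about 0.05 would lie under that cut-off.

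**Figure D4:**
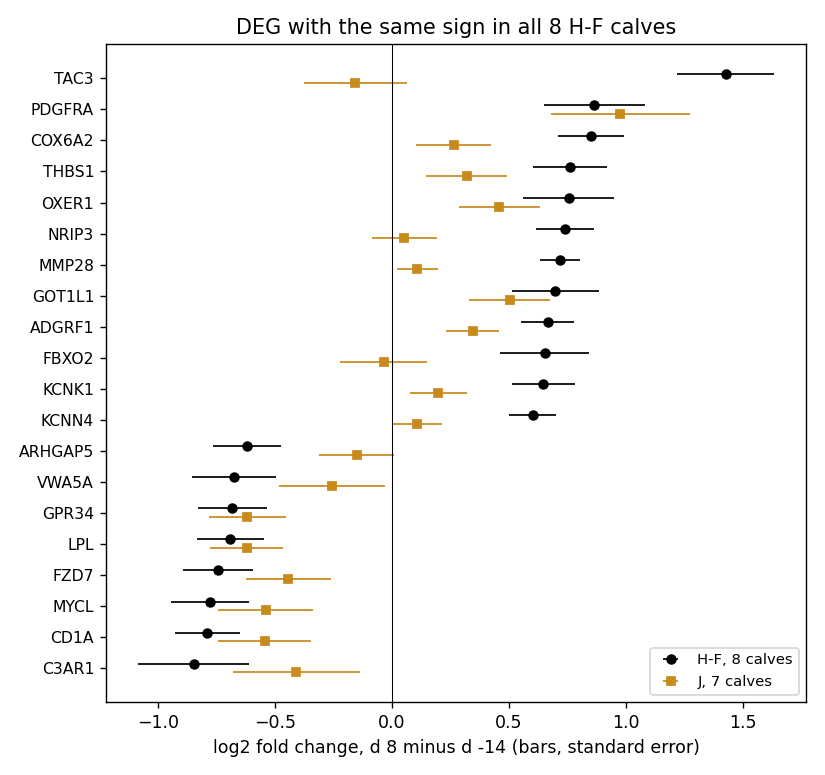
Log2 fold change of d 8 minus d -14 with its standard error in H-F calves (black circles, 8 calves) and J calves (yellow squares, 7 calves) for 20 DEG with a symbol and the same sign in all 8 H-F calves that were named by rule. TAC3 is at 1.43 in H-F and -0.16 in J calves, while LPL and GPR34 lie close together in both breeds.

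**Figure D5:**
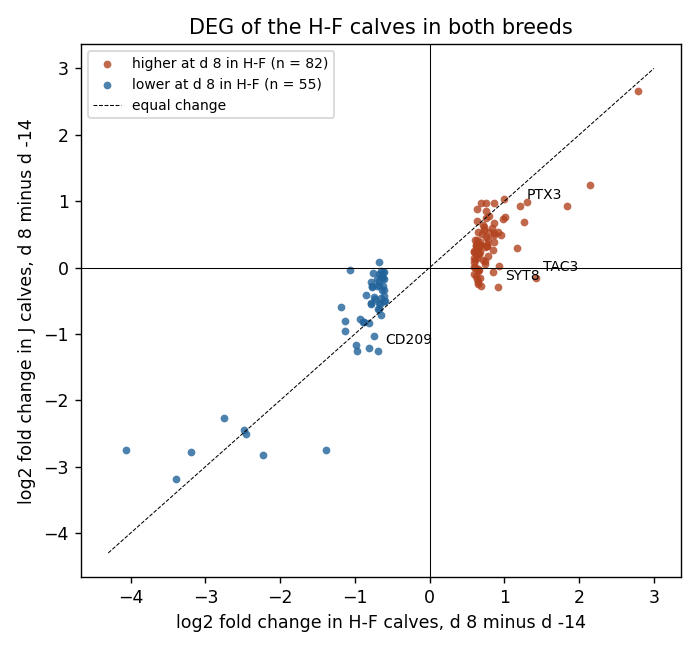
Log2 fold change of d 8 minus d -14 in J calves (vertical axis) against that in H-F calves (horizontal axis) for the 137 DEG of the H-F calves, with the line of equal change dashed. The genes that fell lie below 0 in J calves with 1 exception, and 13 of the 82 genes that rose lie below 0.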

How the data were processed

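Whole blood RNA (1000 ng) was made into poly(A) libraries with a kit that does not mark strand. The authors checked paired-end reads with FastQC 0.10.0, aligned them to UMD3.1 with STAR, kept unique alignments and used HTSeq-count in its union mode to assign them to Ensembl genes, so overlapping genes and near-identical copies are uncertain. For STAR, HTSeq and the strand setting, versions and values were not given in the sources used here. The deposited values are raw counts of 24616 genes and 92 spike-ins.

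Spike-ins were left out, and a gene was tested if 8 libraries or more had over 1 CPM of it. The study left out a J calf without naming it. Mean log2 CPM without J calf 85 differed from the study's tables by 0.00317 (root mean square, 800 genes), and by at least 0.0512 without any other J calf, so 45 libraries were fitted without calf 85. edgeR 4.0.16 with TMM factors was run in R 4.3.3 with calf as a block and a term for each breed and later day. Calf numbers in the labels pair the samples: correlations of H-F libraries after removing group means were 0.404 to 0.846 within a calf and -0.342 to 0.165 between calves. The study's own test, an exact test between groups at the same FDR and fold change, did not use the pairing. The paper reports no DEG between days within either breed. That result was not reproduced here by edgeR's exact test without the block. It gave 20 DEG for H-F d 8 and 1 for H-F d 1 against d -14, and 3 for J d 8 against d -14. The reason for this gap was not tested. P-values of this fit measure the spread left after each calf's own level was taken out, over all 45 libraries of both breeds. Standard errors were derived from the same fit, and the n beside them is the number of calves.

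Symbols came from the study's tables of breed differences (695 of 800 identifiers). Genes were named by rule: the 12 largest rises and falls among DEG with a symbol and the same sign in all 8 calves (8 falls are given), DEG of both fits with a symbol, from each of 28 lists the called members with the smallest p (at most 4) or else the member with the smallest p, and 4 identifiers. Some genes that met the rule are not reported here. Members, lists and rules were chosen with earlier results of these data known. Alternatives were no block, DESeq2 1.42.0, edgeR's exact test, voom from limma 3.58.1, RLE factors, other filters and thresholds, H-F libraries alone, all 16 calves, and each H-F calf left out.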

Additional observations from a re-analysis of the deposited data

Results flagged for a closer look

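Values far from the other calves of their day were looked for in 88 sets of 8 calves. The gap to the nearest calf was taken relative to the whole range, on the log scale. In all, 3 such values were found, a smaller share than the about 1 in 20 that chance gives. FBXO2 was at 1.70 CPM in calf 32 at d 8, with the other calves at 1.03 to 1.27 CPM. STEAP3 was at 5.14 CPM in calf 25 at d 8, with the others at 9.49 to 16 CPM. PTGS2 was at 3.43 CPM in calf 27 at d -14, with the others at 6.44 to 9.73 CPM.

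A difference between the breeds in the change from d -14 to d 8 passed for TAC3 (1.58 on the log2 scale, H-F minus J) and for ENSBTAG00000018202 (0.287), each with an edgeR adjusted p of 0.0817 and each in the direction of a larger rise in H-F calves. TAC3 was higher at d 8 in 8 of 8 H-F calves and in 3 of 7 J calves, and ENSBTAG00000018202 in 8 of 8 and 4 of 7. Neither passed in limma-voom, with RLE factors, at a mean count of at least 10, without the replicate block, or without calf 25, 27, 32, 48, 49 or 56.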

How the results depend on the processing

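The 137 DEG of H-F d 8 against d -14 became 9 with no replicate block, so the pairing by calf decided most of them, 20 in edgeR's exact test without it, 304 with no filter on low counts (107 up and 197 down), and 1754 with no fold-change threshold. With single H-F calves left out they numbered 89 to 168. For d 1 against d -14 the 32 DEG became 0 with no replicate block, 1 in the exact test, 18 in limma-voom, 104 with no filter, 55 at a mean count of at least 10, 237 with no fold-change threshold, and 19 to 36 with calves left out. The 26 DEG of the J calves became 0 with no replicate block, 3 in the exact test, 41 in DESeq2, 42 with all 16 calves, 16 at an FDR of 5%, and 21 to 33 with H-F calves left out. The 1 DEG of the breed difference became 0 with no replicate block, in limma-voom, with RLE factors, at a mean count of at least 10 and at an FDR of 5%, 5 in DESeq2, 2 with no fold-change threshold, and 0 to 5 with calves left out. List members that were DEG numbered 2 up and 3 down, 1 and 0 with no replicate block and in the exact test, 1 down in limma-voom, 16 and 9 with no fold-change threshold, and 2 to 3 up and 2 to 4 down with calves left out. The mean rise of the spike-in share was 0.03047 to 0.05088 percentage points with calves left out. Its exact permutation p then ran from 0.0312 (without calf 27, n = 7) to 0.125, beside 0.0625 with every H-F calf.

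Of the 38 named genes with adjusted p under 0.1, 38 kept it in DESeq2 and with RLE factors, 31 in limma-voom, 4 with no replicate block and 7 in the exact test, and 27 kept it with every single calf left out. Leaving out calf 48 lost 8 of them and calf 25 lost 7. CDKN1A, at 0.005, changed sign to -0.002 in DESeq2, with no filter and with all 16 calves, -0.01 in limma-voom, -0.001 with RLE factors and with only the 24 H-F libraries, -0.004 at a mean count of at least 10, -0.003 with only the 16 H-F libraries of d -14 and d 8, and with single calves left out ran from -0.054 (without calf 48) to 0.043 (without calf 27), with -0.043 and -0.032 without calf 20 and 32. The cause of these differences was not tested, except that the alternatives without the block do not use the pairing. Shares of counts on globin genes, and spike-in shares without globin, were not run, because no globin gene could be matched. Genes near 1 CPM are the least precise at this depth.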
